A study of Mus musculus with 63 samples.

Results

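The 8 genes described here encode parts of the apoptosis machinery, taken as a named list: the death receptors Fas and Tnfrsf10b, the initiator caspase Casp8 and its inhibitor Cflar, the initiator caspase Casp9 and its activator Apaf1, and the caspase inhibitor Xiap with its antagonist Diablo. All 8 were measured among 19938 genes. Each was read from the probe set that carries its symbol alone and has the highest mean over all arrays. The expression values are log2 values, so that a difference of 1 is a doubling.

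Cells die by apoptosis along an extrinsic and an intrinsic route. In the extrinsic route a ligand binds a death receptor of the cell surface, the receptor gathers the adaptor FADD and caspase-8, and c-FLIP, the product of Cflar, limits caspase-8 activation. In the intrinsic route mitochondria release cytochrome c, Apaf1 assembles with it into the apoptosome, and the apoptosome activates caspase-9. XIAP binds and blocks caspases, and Smac, the product of Diablo, is released from mitochondria and relieves that block. Fas, Tnfrsf10b and Apaf1 are known as genes that p53 can induce, and DNA damage by alkylating drugs is a classical trigger of p53.

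The study profiled lymph node lymphomas of Eµ-myc mice on a C57BL/6 background. Eµ-myc mice carry a Myc transgene under the immunoglobulin heavy chain enhancer, which drives Myc in B-lineage cells, and the lymphoma cells were profiled without culture. The 63 arrays comprised 31 labelled CTX 4h, from lymphomas taken 4 h after cyclophosphamide, an alkylating drug, and 32 labelled native, from untreated lymphomas. A dose label of 300 mg/kg stood on 29 arrays of the treated group, all made from 100 ng RNA, and on none of the other 2. The series text speaks of untreated samples only, so the treated status rests on the labels of the arrays. The sources used here do not settle whether a native lymphoma came from a transgenic mouse or a transplant recipient. Every array bore a lymphoma number of its own, and separate mice were not stated, so p-values reflect only how far these samples spread, which may in part be technical.

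The groups were unevenly spread over 4 array sets, defined by the RNA input and, for the 100 ng arrays only, by the first digit of the lymphoma number. The 300 ng arrays were kept as 1 set with numbers starting with 8 and 9. Its 2 CTX 4h lymphomas had a number starting with 8 and a number starting with 9. The arrays made from 300 ng RNA held 2 CTX 4h and 17 native lymphomas. The arrays made from 100 ng held 6 and 7 among numbers starting with 1, 9 and 3 among numbers starting with 8, and 14 and 5 among numbers starting with 9. The B cell identity showed in Cd79b, a chain of the B cell receptor complex. Its lowest level was 12.38 in native and 12.37 in CTX 4h lymphomas. For the other measured B cell markers the lowest native level ran from 6.25 (Blk) to 10.6 (Cd22), with Cd79a at 8.38. Two-sided comparisons of treatment held the array set as a term. Macrophage markers were on average higher in the treated lymphomas, by 0.41 ± 0.12 (SE) over 12 genes. So were stromal and endothelial markers, by 0.34 ± 0.10 (SE) over 10 genes, and small RNA genes, by 0.43 ± 0.11 (SE) over 54. Adipocyte and salivary gland markers differed by 0.60 ± 0.27 and 0.94 ± 0.44 (SE). T and NK cell markers differed by -0.22 ± 0.19 (SE) over 12 genes. In whole tumor RNA, fewer cells of a type and less RNA per cell cannot be told apart. The native arrays of replicates 4 and 25 stood apart from the others, with mean correlations of 0.915 and 0.906 to the other arrays.

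Fas and Cflar varied together across lymphomas, as did Casp8 and Apaf1, and the RefSeq windows of 250 bases upstream of their start sites (assembly GRCm38.p6) are shown for that reason. Capitals mark an E-box (CACGTG), a GC box (GGGCGG) or a CCAAT box, searched on both strands, and no 2 of the matches overlap. The windows lie at chr19:34290409-34290658 (plus strand) for Fas, at chr1:58711241-58711490 (plus strand) for Cflar, at chr1:58802252-58802501 (plus strand) for Casp8 and at chr10:91082744-91082993 (minus strand) for Apaf1.
Fas: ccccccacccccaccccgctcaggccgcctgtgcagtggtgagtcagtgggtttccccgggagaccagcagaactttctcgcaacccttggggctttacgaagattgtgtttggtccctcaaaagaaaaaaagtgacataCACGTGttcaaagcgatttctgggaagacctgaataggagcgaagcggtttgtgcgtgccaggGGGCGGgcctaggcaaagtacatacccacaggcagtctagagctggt
Cflar: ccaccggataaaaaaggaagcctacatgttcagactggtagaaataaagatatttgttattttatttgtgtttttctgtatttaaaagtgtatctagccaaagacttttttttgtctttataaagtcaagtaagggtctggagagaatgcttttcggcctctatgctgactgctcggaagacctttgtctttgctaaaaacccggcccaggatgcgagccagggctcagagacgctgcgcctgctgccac
Casp8: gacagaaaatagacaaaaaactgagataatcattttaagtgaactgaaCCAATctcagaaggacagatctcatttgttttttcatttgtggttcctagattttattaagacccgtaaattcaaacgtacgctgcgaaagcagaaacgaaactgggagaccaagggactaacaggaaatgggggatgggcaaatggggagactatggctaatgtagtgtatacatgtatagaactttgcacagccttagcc
Apaf1: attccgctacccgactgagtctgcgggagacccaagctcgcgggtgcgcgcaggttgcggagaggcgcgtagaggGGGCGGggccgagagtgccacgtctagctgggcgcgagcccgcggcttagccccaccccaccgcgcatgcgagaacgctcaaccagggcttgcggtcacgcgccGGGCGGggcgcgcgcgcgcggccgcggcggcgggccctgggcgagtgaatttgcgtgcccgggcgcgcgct

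The RefSeq table held 7 of the 8 genes, in 9 windows; Tnfrsf10b was not matched. The Fas window held 1 E-box, at 110 to 105 bases before the start site, and 1 GC box. Of 32851 windows of the same length, 6.02% held CACGTG and 32.7% held GGGCGG. The Apaf1 window held 2 GC boxes and that of Casp9 4. Xiap had 1 GC box in 2 of its 3 windows, and Diablo 1 GC box and 1 CCAAT box. The Casp8 window held a single CCAAT box, a motif of 33.8% of windows, and that of Cflar none of the motifs. No window of the 7 genes matched the p53 half-site or the NF-kB site, which 7.13% and 7.25% of windows held. These are matches of letters in a short window, and they say nothing about binding. Cflar and Casp8 are adjacent protein-coding genes of chromosome 1, on the same strand.

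At 4 h after cyclophosphamide none of the 8 genes passed the test, in either direction. The background of this comparison was 144 higher genes (0.722% of those tested) and 66 lower genes (0.331%), together 1.05%, at an adjusted p under 0.05 in limma. At an unadjusted p under 0.05 the members numbered 1, Tnfrsf10b, against 9.96% of all genes. The median difference of the 8 genes was -0.0030, with 3 above 0, beside a median of -0.02 over all genes. With RNA input in place of array set in the model, 2.67% of genes passed (1.41% higher and 1.26% lower), and again none of the 8.

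Tnfrsf10b encodes the mouse receptor for TRAIL and had the largest difference of the 8. Its level in native lymphomas ran from 6.26 through a median of 6.88 to 7.71, and in CTX 4h lymphomas from 6.45 through 7.28 to 8.69. The groups overlapped widely, and 26 of 31 treated lymphomas lay above the median of all native ones. Against the native median of their own array set 15 of 31 lay above, with both at 300 ng among them. The means were 7.31 ± 0.49 (SD, n = 31) and 6.98 ± 0.43 (SD, n = 32), and the difference with array set held was 0.32 ± 0.14 (SE; 95% interval 0.04 to 0.60). Its unadjusted p in limma was 0.0249 and its adjusted p 0.37. A permutation of the group within array sets gave p = 0.0167 (100000 permutations, two-sided, not adjusted over genes).

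The Tnfrsf10b difference was largest in the 300 ng arrays. The 2 treated lymphomas there had levels of 7.82 and 8.69, both above all 17 native ones, which ran from 6.26 through 6.81 to 7.71. The difference of 1.39 ± 0.32 (SE) passed the test within that set (limma adjusted p = 0.0284), where 1.77% of genes did. The exact permutation p was 0.00585, the smallest that 2 against 17 arrays can give. Neither test held the first digit of the lymphoma number, which differed between these 2 treated lymphomas. In the 100 ng arrays the differences were 0.15 ± 0.14 (SE) for numbers starting with 1, 0.10 ± 0.21 for those with 8 and 0.09 ± 0.26 for those with 9. The groups overlapped in each of these 3 sets, and no gene passed there in limma, while 3.89%, 5.80% and 3.02% of genes had an unadjusted p under 0.05. Tnfrsf10b was thus higher in the treated mean of all 4 sets, a pattern of 8.85% of all genes. None of the 8 was lower in all 4 sets, as 10.4% of genes were. The test of whether the treatment difference varied between sets gave an adjusted p of 0.838 in limma (unadjusted 0.00695). In that test 4.66% of genes had an unadjusted p under 0.05, and the share at 0.00695 was not counted. Over the 100 ng arrays alone the difference was 0.11 ± 0.13 (SE), and without CTX 4h replicate 2 it was 0.19. With the macrophage score as a further term it was 0.15 ± 0.15 (SE).

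Fas, the receptor of Fas ligand, had native levels from 5.07 through 5.82 to 7.51 and CTX 4h levels from 5.01 through 6.04 to 6.95. The highest level was that of native replicate 4, and 19 of 31 treated lymphomas lay above the native median of their own array set. The difference was 0.15 ± 0.15 (SE, limma adjusted p = 0.834; 95% interval -0.14 to 0.45). Within sets it was 0.55 at 300 ng, -0.14, 0.34 and 0.11 in the 100 ng sets starting with 1, 8 and 9. The 2 treated lymphomas at 300 ng had 6.42 and 6.69, inside the native range of 5.43 to 7.51. Fas was the only 1 of the 8 genes whose mean lay below the median of all gene means, 7.12, a dim range in which RMA compresses differences. Tnfrsf10b lay just above that median, with a mean of 7.14 over all arrays and of 6.98 in native lymphomas. With the macrophage score as a term the difference was -0.02, and with the T and NK cell score 0.28 ± 0.10 (SE, limma adjusted p = 0.121).

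**Figure D1:**
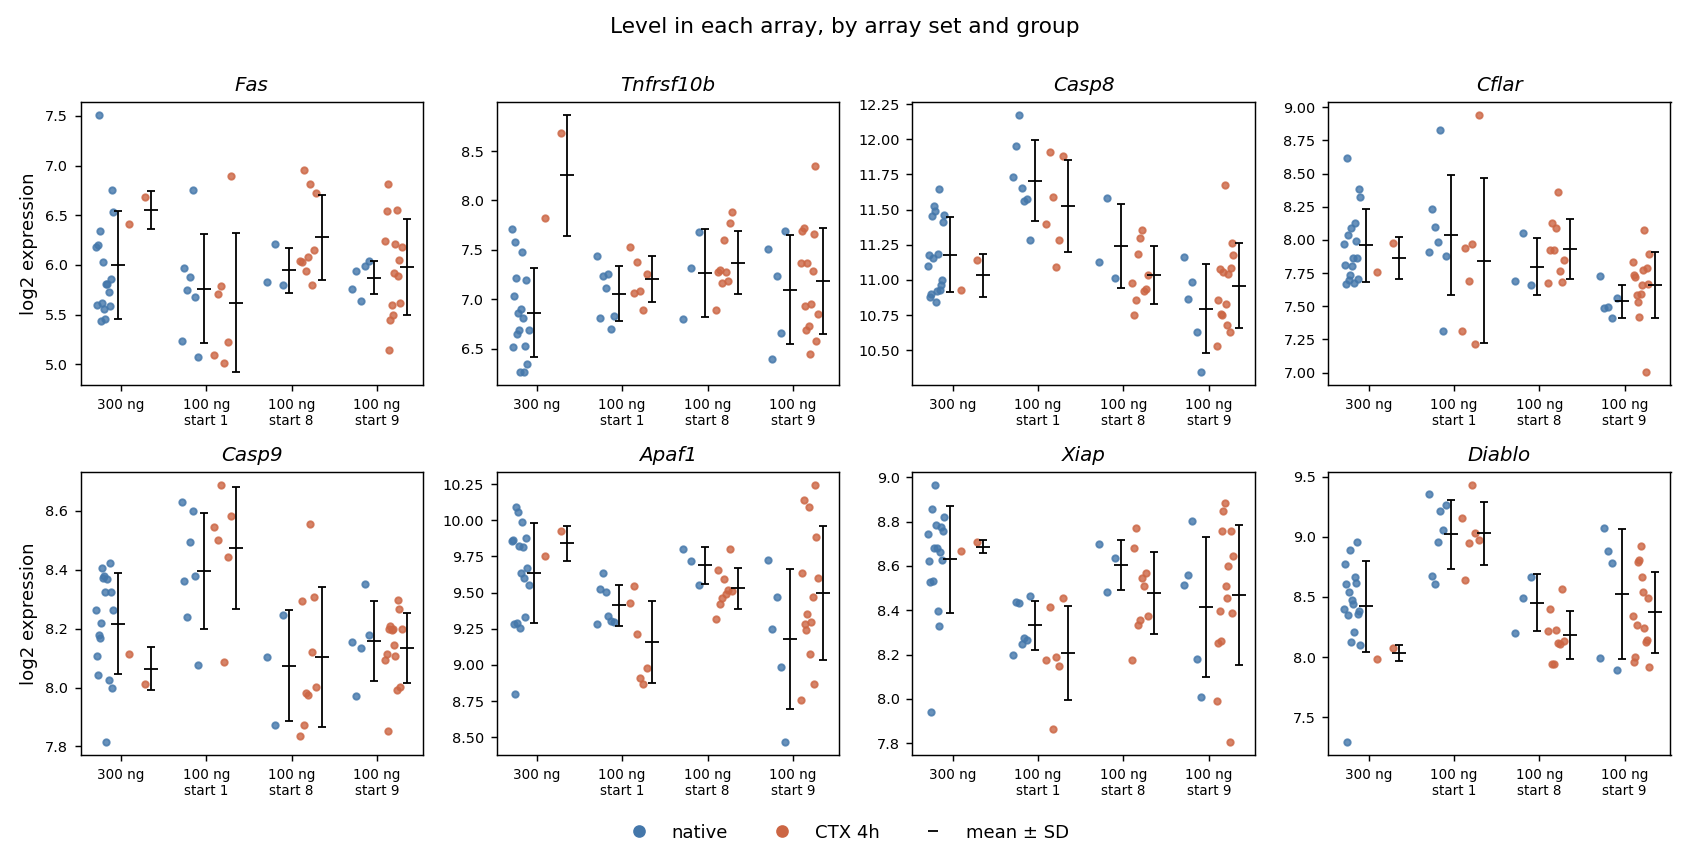
Log2 expression of each gene (vertical axis) in every array, by array set and group; bars are mean ± SD. Treated and native lymphomas overlap in most panels, and the 2 treated lymphomas at 300 ng lie above the native ones for Tnfrsf10b, at 7.82 and 8.69.

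Casp8, the initiator caspase of the receptor complex, differed by -0.06 ± 0.08 (SE, limma adjusted p = 0.896; 95% interval -0.23 to 0.10). Its levels ran from 10.3 through 11.2 to 12.2 in native and from 10.5 through 11.1 to 11.9 in treated lymphomas. It was lower in the treated mean of 3 sets, by 0.14 to 0.21 on the log2 scale, and higher by 0.16 among numbers starting with 9. Cflar differed by -0.0022 ± 0.10 (SE, limma adjusted p = 0.998; 95% interval -0.19 to 0.19). Its native levels of 7.32, 7.86 and 8.83 (lowest, median, highest) covered most of the treated ones of 7.002, 7.77 and 8.94. Cflar was read by 3 probe sets of its own, and the other 2 gave differences of -0.06 and -0.07 (limma adjusted p = 0.937 and 0.91). Over all arrays these 2 had r of 0.80 and 0.59 with the probe set used here.

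Neither apoptosome gene passed. Apaf1 differed by 0.03 ± 0.10 (SE, limma adjusted p = 0.964; 95% interval -0.17 to 0.24). Within sets it differed by 0.21 at 300 ng and by 0.32 among numbers starting with 9, and by -0.25 and -0.16 among those starting with 1 and 8. Its native levels ran from 8.47 (replicate 25) through 9.55 to 10.1 and its treated levels from 8.76 through 9.47 to 10.2. Casp9 differed by -0.0038 ± 0.05 (SE, limma adjusted p = 0.992), and its 95% interval of -0.11 to 0.11 was the narrowest of the 8. Its levels spanned 7.82 to 8.63 in native and 7.83 to 8.69 in treated lymphomas, with medians of 8.24 and 8.14.

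Xiap differed by -0.03 ± 0.07 (SE, limma adjusted p = 0.946; 95% interval -0.18 to 0.11). Its levels ran from 7.94 through 8.55 to 8.97 in native and from 7.80 through 8.45 to 8.89 in treated lymphomas. Diablo had the second largest difference, -0.17 ± 0.10 (SE, limma adjusted p = 0.62; 95% interval -0.37 to 0.03). A permutation of the group within array sets gave p = 0.0883 (100000 permutations). Its native levels ran from 7.29 (replicate 4) through 8.61 to 9.36 and its treated levels from 7.91 through 8.27 to 9.43, and 25 of 31 treated lymphomas lay below the native median of their own array set. Diablo differed by -0.39 at 300 ng, where the 2 treated levels of 7.99 and 8.08 lay within the native range, by 0.01 among numbers starting with 1, and by -0.27 and -0.15 among those starting with 8 and 9.

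**Figure D2:**
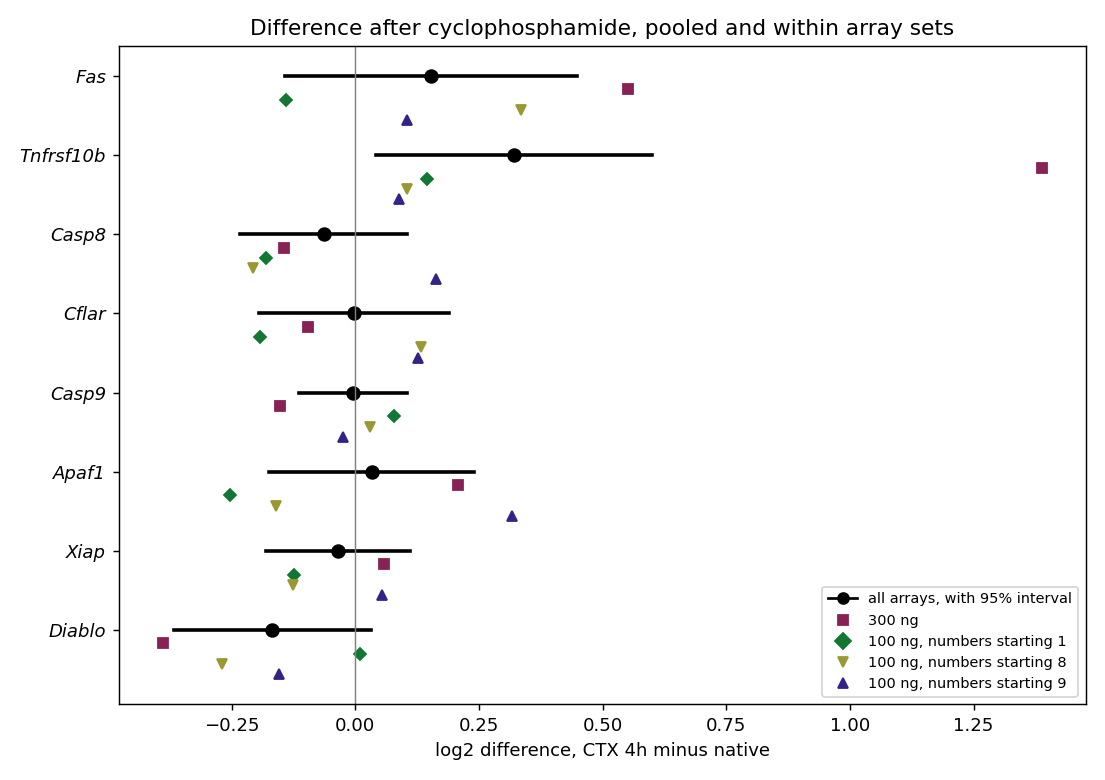
Log2 difference, CTX 4h minus native (horizontal axis), of each gene, with array set held over all arrays (black points, 95% intervals) and within each of the 4 array sets (colored marks). The interval of Tnfrsf10b alone excludes 0, from 0.04 to 0.60, and its 300 ng mark stands at 1.39.

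The lists around the 8 genes were counted in the same model. Their counts stand beside 1.05% of all genes called and 9.96% of all genes at an unadjusted p under 0.05. Of 6 death ligands none passed, nor did any have an unadjusted p under 0.05. Fasl, the ligand of Fas, differed by 0.03 ± 0.05 (SE) and Tnfsf10, the ligand of Tnfrsf10b, by 0.02 ± 0.19 (SE). The lymphotoxin genes Lta and Ltb differed by -0.28 and -0.34, short of the threshold (limma adjusted p = 0.598 and 0.79), and that of Lta was -0.13 without native replicate 19. Of 10 other death receptors and decoys 1 was higher, Eda2r, a receptor for a form of ectodysplasin, by 0.25 ± 0.07 (SE, limma adjusted p = 0.0499). That call was lost with any 1 of 46 of the 63 arrays left out, where the adjusted p over all 63 omissions ran from 0.0117 to 0.167. Tnfrsf1a, the TNF receptor, differed by 0.33 ± 0.12 (SE, limma adjusted p = 0.221).

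Of 11 receptor adaptors and regulators none passed, and 3 had an unadjusted p under 0.05. Fadd, the adaptor between Fas and caspase-8, differed by -0.22 ± 0.08 (SE, limma adjusted p = 0.268) and Pea15a, a death effector domain protein, by 0.30 ± 0.12 (SE, limma adjusted p = 0.307). Of 5 other apoptotic caspases and their scaffolds none passed, and 2 had an unadjusted p under 0.05. Pidd1, the scaffold of the caspase-2 platform, differed by 0.48 ± 0.15 (SE, limma adjusted p = 0.0976). It was past the threshold under quantile normalization (0.59, limma adjusted p = 0.0471). Its adaptor Cradd differed by -0.15 (limma adjusted p = 0.38).

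None of 12 IAP proteins and mitochondrial factors and none of 10 caspase substrates and nucleases passed, with 0 and 2 of them at an unadjusted p under 0.05. Xaf1, an antagonist of XIAP, differed by 0.34 ± 0.17 (SE) and Cycs, the cytochrome c gene, by 0.12 ± 0.07 (SE), with limma adjusted p-values of 0.517 and 0.618. Without native replicate 25 the Cycs difference was 0.043. Xkr8, a lipid scramblase cleaved by caspases, differed by -0.10 and the actin-severing protein gene Gsn by 0.39 (limma adjusted p = 0.447 and 0.477). Beside these lists 5 of 24 p53 target genes were higher and none lower, with a median of 0.27 and 20 above 0, against 0.722% of genes higher over all. Small RNA genes were higher as well, 21 of 54 with a median of 0.46 and 49 above 0, beside the higher macrophage and stromal scores. The 4 p53 target genes of smallest p kept their sign but lost their calls with the small RNA score as a term (limma adjusted p of 0.0855 to 0.47) and with the macrophage score (0.223 to 0.761). Sesn2, which encodes the stress protein sestrin 2, had the smallest p among them, with a difference of 0.81 ± 0.16 (SE, limma adjusted p = 0.00268). In the 100 ng arrays alone Sesn2 differed by 0.61 and did not pass (limma adjusted p = 0.26). With the macrophage score as a term it differed by 0.52 (limma adjusted p = 0.223), and with the small RNA score by 0.68 (limma adjusted p = 0.0855). In these same settings most calls over all genes were lost too, with the counts given in the closing section. The loss of calls was thus not particular to p53 target genes, and its cause was not tested.

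**Figure D3:**
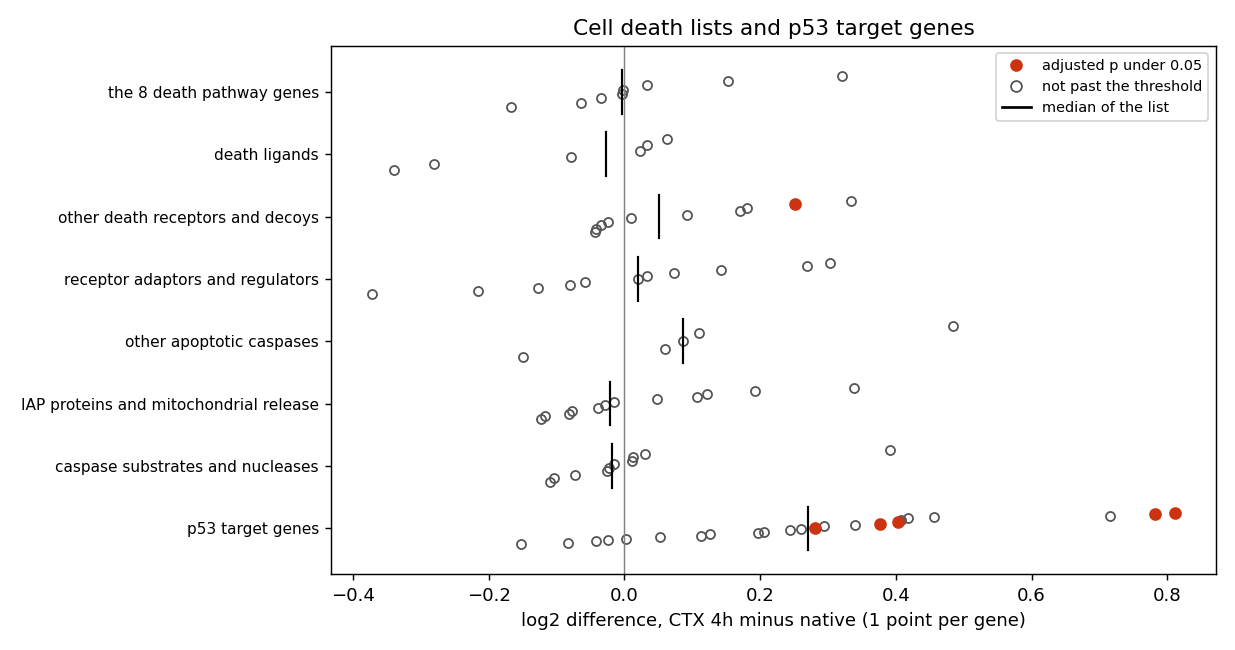
Log2 difference, CTX 4h minus native with array set held (horizontal axis), of every measured gene of 8 lists; filled points passed an adjusted p of 0.05 and vertical bars are list medians. The 8 death pathway genes have no filled point, and 5 of 24 p53 target genes do.

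Among the native lymphomas themselves the array sets differed for many genes. The test over sets called 31% of all genes and 2 of the 8, Casp8 and Diablo, a share near that background. Casp8 had set means of 11.2 ± 0.27 (SD, n = 17) at 300 ng and 11.7 ± 0.29 (SD, n = 7), 11.2 ± 0.30 (SD, n = 3) and 10.8 ± 0.32 (SD, n = 5) among numbers starting with 1, 8 and 9 (limma adjusted p = 6.96e-04). The 5 native lymphomas of numbers starting with 9 had Casp8 levels of 11.16, 10.86, 10.98, 10.63 and 10.34, all below the 7 of numbers starting with 1, whose lowest was 11.28. Diablo had set means of 8.42, 9.02, 8.45 and 8.53 in the same order (limma adjusted p = 0.0362). Neither was called after quantile normalization of all arrays, where the adjusted p-values were 0.576 and 0.241 and Apaf1 and Xiap were called in their place (limma adjusted p = 0.0025 and 0.00104).

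Relations between lymphomas were measured after the mean of each array set was taken off, separately in native and treated lymphomas. The 28 pairs of the 8 genes had a median Pearson's r of 0.02 in native lymphomas, with 15 pairs above 0. After adjustment over 56 pairs, 3 pairs passed in native lymphomas by r and by Spearman's rho, and 2 of these passed in treated lymphomas by both. The share of all gene pairs that would pass was not counted. Ranked among all genes from the highest r in native lymphomas, Cflar was number 236 for Fas, and Fas number 75 for Cflar. Apaf1 was number 72 for Casp8, and Casp8 number 825 for Apaf1. Diablo was number 18425 for Fas, and Fas number 18598 for Diablo.

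Fas and Cflar, the receptor and the inhibitor of its caspase, rose and fell together. In native lymphomas r was 0.74 (permutation p = 6e-05, adjusted 0.00168; n = 32) and rho 0.64 (adjusted permutation p = 0.00951). In treated lymphomas r was 0.66 (adjusted permutation p = 0.0126; n = 31) and rho 0.60 (adjusted permutation p = 0.0153). Without the 2 lymphomas farthest out r was 0.54 and 0.50. Within single sets r was 0.83 at 300 ng and 0.71 among numbers starting with 1 in native lymphomas, and 0.84, 0.60 and 0.49 in the treated sets starting with 1, 8 and 9. The other 2 Cflar probe sets gave r of 0.71 and 0.76 with Fas in native and 0.64 and 0.53 in treated lymphomas.

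Casp8 and Apaf1, of the 2 different routes, formed the other pair. In native lymphomas r was 0.67 and rho 0.68 (adjusted permutation p = 0.00168 and 0.00392), and r was 0.67 without the 2 lymphomas farthest out. In treated lymphomas r was 0.62 and rho 0.62 (adjusted permutation p = 0.0126 and 0.0153). Within sets r was 0.60 and 0.81 in native lymphomas. It was 0.49 and 0.79 among treated numbers starting with 1 and 9, and -0.17 among the 9 starting with 8, so that the relation did not hold in that set. Casp8 and Cflar, which lie side by side in the genome, had r of 0.26 in native and 0.38 in treated lymphomas. These values rest on the Cflar probe set of highest mean alone.

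Fas and Diablo ran in opposite directions. In native lymphomas r was -0.54 (adjusted permutation p = 0.0256) and rho -0.49 (adjusted permutation p = 0.0342), and r was -0.30 without native replicates 4 and 25. In treated lymphomas r was -0.50 (adjusted permutation p = 0.0587) and rho -0.53 (adjusted permutation p = 0.0402). Xiap and Apaf1 had r of 0.56 in native lymphomas, which fell to 0.17 without the 2 lymphomas farthest out.

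**Figure D4:**
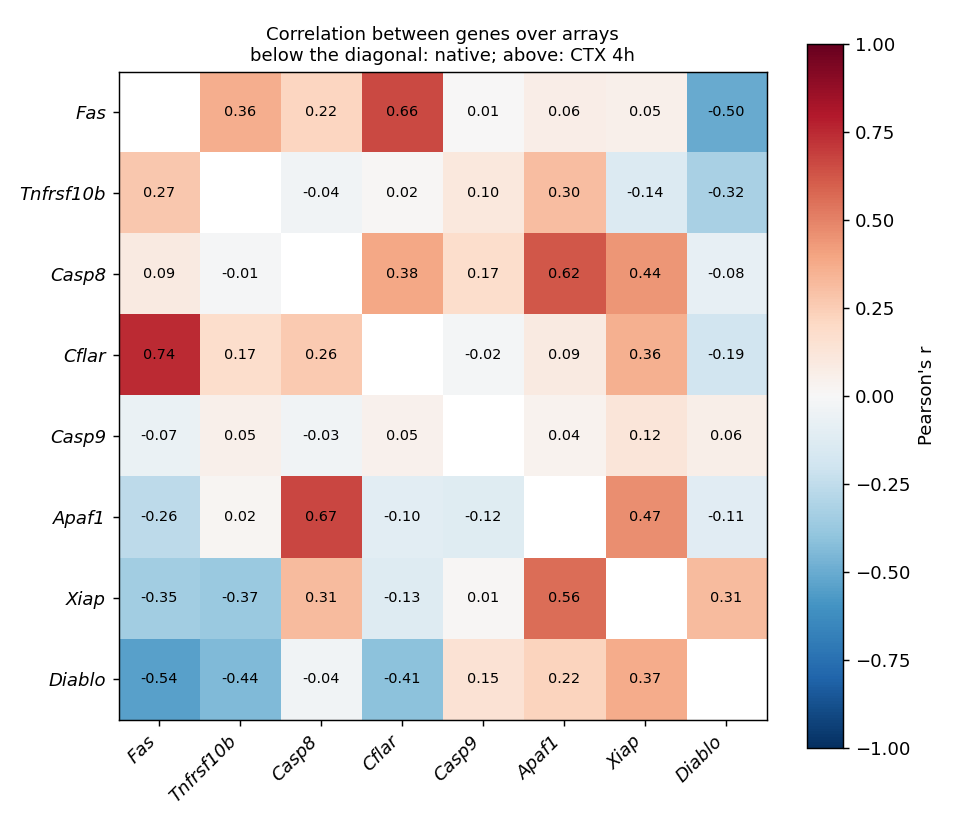
Pearson's r between the 8 genes over arrays, with array set means taken off, in native lymphomas (below the diagonal, n = 32) and CTX 4h lymphomas (above it, n = 31). The pairs Fas with Cflar (0.74 and 0.66) and Casp8 with Apaf1 (0.67 and 0.62) have the highest r in both groups.

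Markers of other cells and p53 target genes were set against the 8 genes in the same way, as scores that average a list after centring each gene, with 144 relations in all. Fas followed the T and NK cell score, with r of 0.70 in native and 0.80 in treated lymphomas (adjusted permutation p = 0.0036 and 0.00288) and rho of 0.64 and 0.77 (adjusted permutation p = 0.0209 and 0.00576). Without the 2 lymphomas farthest out r was 0.61 and 0.68. Of all genes 1.68% in native and 0.682% in treated lymphomas lay as far out in the same direction. Cflar followed the same score with r of 0.66 and 0.70 (adjusted permutation p = 0.0192 and 0.0209), while rho of 0.52 and 0.49 did not pass (adjusted permutation p = 0.0699 and 0.0841). The score of the 12 T and NK markers spanned -1.01 to 1.87 in native and -1.25 to 1.93 in treated lymphomas. T and NK cells can express Fas themselves, and the part of these cells in the Fas and Cflar levels was not tested.

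Apaf1 and Casp8 instead went with the p53 target score, which holds none of the 8 genes. Apaf1 had r of 0.68 in treated lymphomas (adjusted permutation p = 0.0304), with rho of 0.65 (adjusted permutation p = 0.0341), and r of 0.58 in native lymphomas (adjusted permutation p = 0.057). Within treated sets r was 0.58, -0.02 and 0.76 for numbers starting with 1, 8 and 9, so that it did not hold among those starting with 8. Of all genes 0.286% in treated and 1.29% in native lymphomas lay as far out. Casp8 had r of 0.55 in native lymphomas (adjusted permutation p = 0.0387; rho 0.53, adjusted 0.0699) and 0.46 in treated ones (adjusted permutation p = 0.129). Apaf1 also had r of 0.63 with the macrophage score in treated lymphomas (adjusted permutation p = 0.0461; rho 0.58, adjusted 0.0699), while r was 0.08 in native lymphomas, and the part of macrophages was not tested. The p53 target and macrophage scores shared their lowest treated lymphoma, CTX 4h replicate 15, with deviations of -0.45 and -0.83. In CTX 4h replicate 17 they were 0.06 and -0.45. Whether the relations of Apaf1 with these 2 scores in treated lymphomas are separate was not tested. The salivary gland score, a sign of neighbouring tissue, had r of 0.56 with Fas and -0.53 with Diablo in native lymphomas (adjusted permutation p = 0.0304 for both), while rho did not pass (adjusted permutation p = 0.0841 and 0.203). Without the 2 arrays that stood apart these were 0.44 and -0.38, and in treated lymphomas r was -0.01 and 0.31. Of the relations of Tnfrsf10b, Casp9 and Xiap with the 9 scores none passed. Among them, Casp9 had r of -0.51 with the neutrophil score in treated lymphomas, where 0.281% of all genes lay as far out. Tnfrsf10b had r of -0.52 with the B cell score in treated lymphomas, where 0.838% of all genes did.

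**Figure D5:**
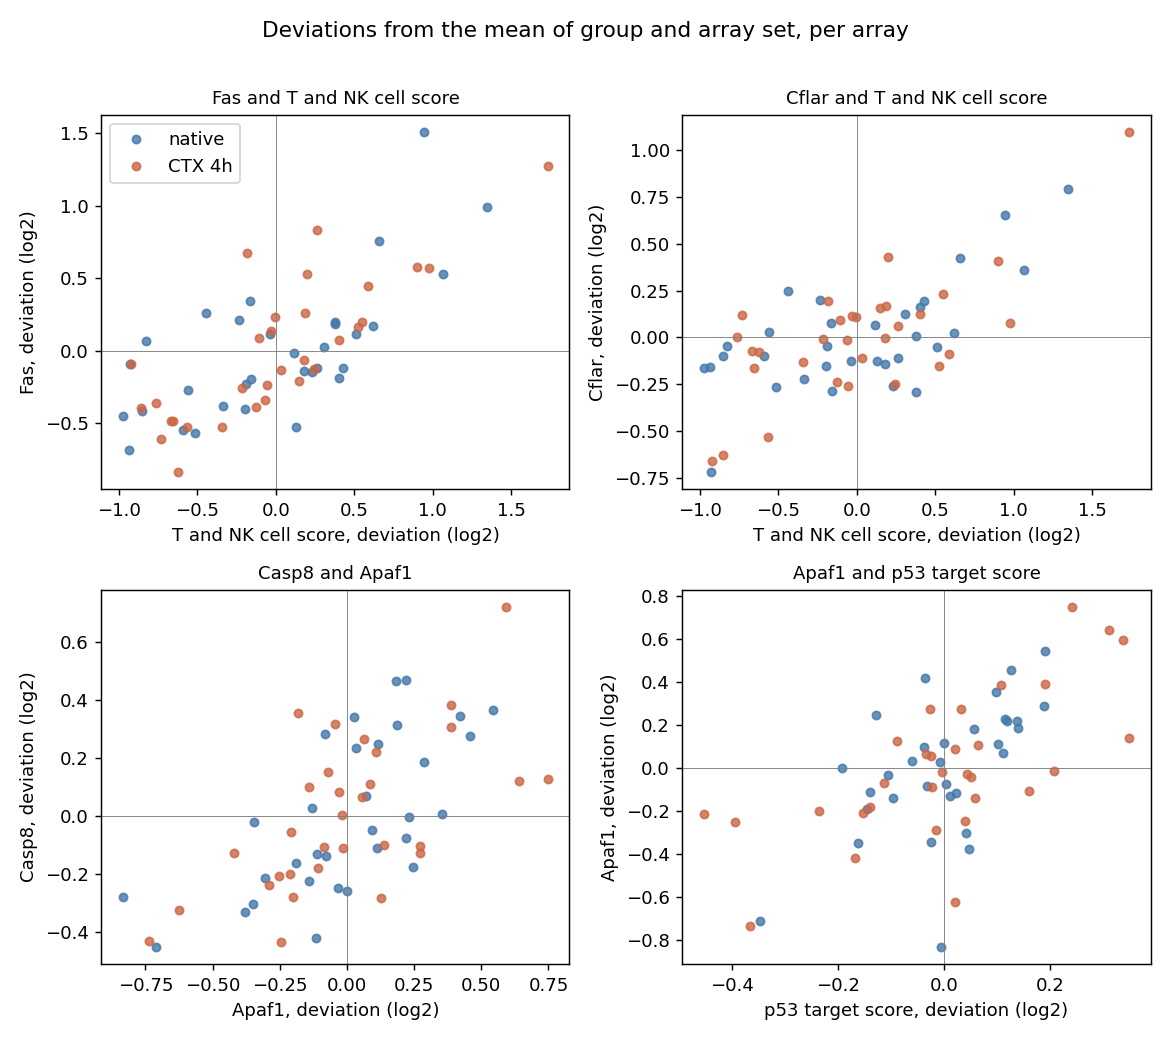
Deviation of each array from the mean of its group and array set, in log2 units on both axes, for Fas and Cflar against the T and NK cell score, Casp8 against Apaf1, and Apaf1 against the p53 target score. Points are single lymphomas, and r was 0.70 and 0.80 (native, CTX 4h) for Fas, 0.66 and 0.70 for Cflar, 0.67 and 0.62 for Casp8 with Apaf1, and 0.58 and 0.68 for Apaf1 with p53 targets.

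The genes most like each member over the 32 native lymphomas, by r after set means were taken off, differed from member to member. For Fas these were Kcnip3, Ikzf2 and I730030J21Rik, all at 0.89, and Ikzf2 encodes the lymphocyte transcription factor Helios. For Cflar they were I730030J21Rik (0.84), Papss2 (0.82) and Gimap6 (0.82), so that 1 gene was on both lists. For Tnfrsf10b they were Dync2li1 (0.80), Abhd6 (0.77) and Camk2n1 (0.74). For Casp8 they were Lcp1 (0.83), which encodes an actin-bundling protein of leukocytes, Il17ra (0.80) and Extl3 (0.79). For Apaf1 they were Uggt1 (0.84), Agps (0.82) and Tmem168 (0.81). For Xiap they were Cmtr2 (0.83), Rlim (0.79) and Morc3 (0.79). For Diablo they were Nop14 (0.90), a ribosome biogenesis factor, Cep43 (0.90) and the mitochondrial ribosomal protein gene Mrpl20 (0.89). For Casp9 the nearest were Hivep3 (0.63), Gpcpd1 (0.60) and Hdac9 (0.59), lower than the nearest gene of every other member.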

How the data were processed

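RNA of 63 lymphomas was labelled from 100 or 300 ng and hybridised to Affymetrix mouse arrays, per the labels' protocols. The authors deposited log2 values, made with Partek 6.5 and RMA per the submitters' processing notes. RMA corrects background, normalizes arrays and summarises probes, and it compresses differences of dim genes. The sources used here do not say which arrays were normalized together, and array medians ran from 6.53 to 7.11. The number of arrays limits the precision.

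Of 35557 probe sets, the platform annotation gave 21789 a lone gene symbol, 1621 several and 12147 none, and 21698 of the 21789 matched the RefSeq table of GRCm38.p6. For each of 19938 genes the brightest probe set, by its mean over all arrays, among those naming that gene alone was used. Listed genes with no such probe set were not analysed here. Groups came from the array labels. Treatment was tested with limma 3.58.1 under R 4.3.3 (functions lmFit, eBayes; treatment and array set as terms, two-sided, Benjamini-Hochberg over all genes, adjusted p under 0.05), over all arrays and within sets, with exact permutations or 100000 permutations for single genes. The fit was tested on simulated data. The members and gene lists were chosen with earlier results of these data known. Named genes are the 8 members, up to 4 of each list by smallest p, of which fewer are given here, and the 3 genes most like each member. Fasl and Tnfsf10 were added as the ligands of the receptors. Permutation tests of relations across lymphomas were added after values were seen, with group and array set held, and adjusted over all pairs or all scores. Alternatives covered model terms, arrays used, normalization, probe sets, a filter on dim genes, variance model and marker scores as terms.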

Additional observations from a re-analysis of the deposited data

How the results depend on the processing

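No paired analysis was possible because every array bore a lymphoma number of its own. None of the 8 genes passed in any alternative except Tnfrsf10b at 300 ng alone (1.39, making 1 member higher). The counts of all genes higher and lower, 144 and 66 in the main model, were 281 and 251 with RNA input alone, 12 and 3 in the 100 ng arrays alone, 238 and 114 at 300 ng alone, and 0 and 0 in each 100 ng set alone. They were 432 and 650 with array weights, 60 and 8 at a fold change of at least 1.5, 219 and 305 without the 2 arrays of lowest correlation, 7 and 13 with the macrophage score, 8 and 14 with macrophage and stromal scores, 376 and 225 with the T and NK cell score, and 11 and 10 with the small RNA score. The lower count alone moved to 183 with treatment alone and to 41 at a common median. With 1 array left out they ran from 53 to 179 and from 21 to 144. The higher count was 53 without CTX 4h replicate 1, 64 without CTX 4h replicate 2 and 95 without native replicate 20, and the lower count 22, 21 and 36. The lower count was 40 without native replicate 19 and 144 without native replicate 25. The cause was not tested.

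Some differences that had not passed the test changed sign, most of them near 0 but Ltb, Gsn, Tnfrsf1a and Pea15a among the larger ones. In the 100 ng arrays alone these were Cflar 0.016, Casp9 0.025, Apaf1 -0.00093 and Tnfsf10 -0.0055, and at 300 ng alone Xiap 0.058 and Ltb 0.80. Among numbers starting with 1 they were Fas -0.14, Casp9 0.078, Apaf1 -0.25, Diablo 0.0096, Cycs -0.020, Gsn -0.042 and Tnfsf10 -0.31. Among numbers starting with 8 they were Cflar 0.13, Casp9 0.031 and Apaf1 -0.16, and among those starting with 9 Casp8 0.16, Cflar 0.13, Xiap 0.054, Fasl -0.037 and Tnfsf10 -0.020. RNA input alone gave Xiap 0.012 and Tnfsf10 -0.070, and treatment alone Apaf1 -0.057 and Tnfsf10 -0.061. A common median gave Cflar 0.0080 and Casp9 0.0065, and quantile normalization Cflar 0.013 and Tnfsf10 -0.024. Array weights gave Cflar 0.00072, Casp9 0.010 and Apaf1 -0.042, and leaving out the 2 arrays Apaf1 -0.045. The macrophage score gave Fas -0.023, Casp9 0.033, Apaf1 -0.12 and Tnfsf10 -0.0075, and macrophage and stromal scores Fas -0.047, Casp9 0.027, Apaf1 -0.13, Tnfrsf1a -0.041, Pea15a -0.021 and Tnfsf10 -0.11. The T and NK cell score gave Cflar 0.070 and Casp9 0.0035, and the small RNA score Cflar 0.067, Casp9 0.030 and Apaf1 -0.053. With 1 array left out Cflar ran from -0.057 to 0.039, Casp9 from -0.022 to 0.015, Apaf1 from -0.036 to 0.058 and Tnfsf10 from -0.035 to 0.097.

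The test of set differences in the treatment effect called 0 genes in limma (929 at an unadjusted p under 0.05), 4 with RNA input in place of array set and 2 after quantile normalization. Set differences among native lymphomas covered 6184 genes and 2 of the 8, and 3744 genes after quantile normalization; at a common median 4 of the 8 were called. The native mean of Cflar was 7.42 with its probe sets averaged.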
